A study of Mus musculus with 9 samples.

Results

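The primary granule genes of neutrophil precursors were followed across 3 mouse myeloid cell lines. They were 9 genes, taken by symbol from a given list whose rule used no measured value, though it was drawn up with earlier results of these data known: *Mpo*, *Elane*, *Prtn3*, *Ctsg*, *Prss57*, *Ms4a3*, *Serpinb1a*, *Srgn* and *Cst7*. All 9 were found among the 54347 genes of the count table, and all 9 were among the 13082 genes that passed the filter on low counts. Poly-A RNA was sequenced from 3 libraries of each line, numbered 1 to 3. Hox-WT is a hematopoietic progenitor line from the c-Kit+ bone marrow of a wild-type mouse. Hox-URE is the matching line from a UREd/d mouse, in which both alleles lack the URE, an upstream enhancer of the gene *Spi1* that codes for the transcription factor PU.1. Both lines were immortalized with Hoxb8-ER, a Hoxb8 fusion protein that needs estradiol to act. URE-AML, labelled B22 in the sample titles, is an AML blast-like UREd/d line grown out from the leukemic blasts of a URE-deleted mouse. All lines were kept in the same medium with IL-3, IL-6, SCF and ß-estradiol. Each genotype and stage is 1 line, and URE-AML was made in another way than the Hox lines. Genotype, stage, the way a line was made and the line itself therefore cannot be told apart. Whether separate cultures stand behind the libraries is not in the labels, so p-values measure only the spread between these libraries, which may be technical.

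Neutrophils carry their weapons in granules that are filled at successive stages. Primary, or azurophil, granules form in the promyelocyte, where myeloperoxidase and a family of serine proteases are made in large amounts, trimmed to their active form and packed onto the proteoglycan serglycin; later stages switch these genes off and make the secondary and tertiary granules instead. PU.1, C/EBP factors, RUNX1, MYB and GFI1 are known regulators of this program. Among the 9 genes, *Mpo* codes for the peroxidase, *Elane*, *Prtn3*, *Ctsg* and *Prss57* for serine proteases, and *Srgn* for serglycin. *Serpinb1a* codes for a cytosolic serpin that inhibits these proteases, *Cst7* for cystatin F, an inhibitor of cysteine cathepsins, and *Ms4a3* for a membrane protein of granulocyte and monocyte progenitors, so these last genes accompany the granule program but do not all code for granule contents.

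Total counts were 20331064 to 28588718 per library, and the floor of 3 counts lay at 0.104 to 0.153 CPM (counts divided by the TMM-scaled library size), which covers counting error only. *Spi1* stood at 109.9, 101 and 96.6 CPM in Hox-WT, at 0.0364, 0.0414 and 0 CPM in Hox-URE, and at 2.50, 5.52 and 6.35 CPM in URE-AML. The 3 lines did not overlap, and the Hox-URE libraries were all under the floor. *Hoxb8* was at 61.6 to 69.7 CPM in Hox-WT, rose to 127 to 141 CPM in Hox-URE, and had 0 counts in the 3 URE-AML libraries. *Cd34*, a progenitor marker, had a mean of 1434 CPM in Hox-WT, 926 CPM in Hox-URE and 0.0135 CPM in URE-AML, and *Ptprc*, the gene of the leukocyte antigen CD45, was at 152 to 169.8 CPM in Hox-WT but at 0 in Hox-URE and at or under the floor in URE-AML. Other progenitor markers had other orders, *Kit* with means of 175, 43.0 and 97.0 CPM and *Ly6a* with 0.269, 1.15 and 2.71 CPM in the 3 lines. Of the 5 genes listed with these markers, 1 rose and 3 fell in Hox-URE and 1 rose and 4 fell in URE-AML, each relative to Hox-WT. In URE-AML relative to Hox-URE 1 rose and 2 fell. The marker lists of other cell types are given in the last paragraph of these results.

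The 9 genes did not move as a block in any comparison. In Hox-URE relative to Hox-WT, *Mpo*, *Elane* and *Prtn3* fell, *Serpinb1a* and *Cst7* rose, and 4 genes were not called, where a call needs a change of more than 1.5-fold with an adjusted p below 0.05 in edgeR's quasi-likelihood test with Benjamini-Hochberg adjustment. Among the tested genes as a whole, 21.3% rose and 15.9% fell in that comparison. In URE-AML relative to Hox-WT, *Elane*, *Prtn3*, *Ctsg* and *Cst7* rose and *Mpo* and *Ms4a3* fell, where 23% of the tested genes rose and 20.2% fell. In URE-AML relative to Hox-URE, *Elane*, *Mpo* and *Prtn3* rose and *Ms4a3* and *Serpinb1a* fell, where 20.3% of the tested genes rose and 22.4% fell. These shares are the background for the counts among the 9 genes, and no property of the set is read from counts of 2 to 4. The median log2 fold change of the 9 genes was 0.39, -0.06 and -0.10 in the 3 comparisons, and that of all tested genes was 0.00025, 0.0016 and 0. The comparisons share libraries and are not independent of each other. The RNA is from bulk cultures, so fewer cells making a transcript and less of it per cell cannot be told apart.

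**Figure D1:**
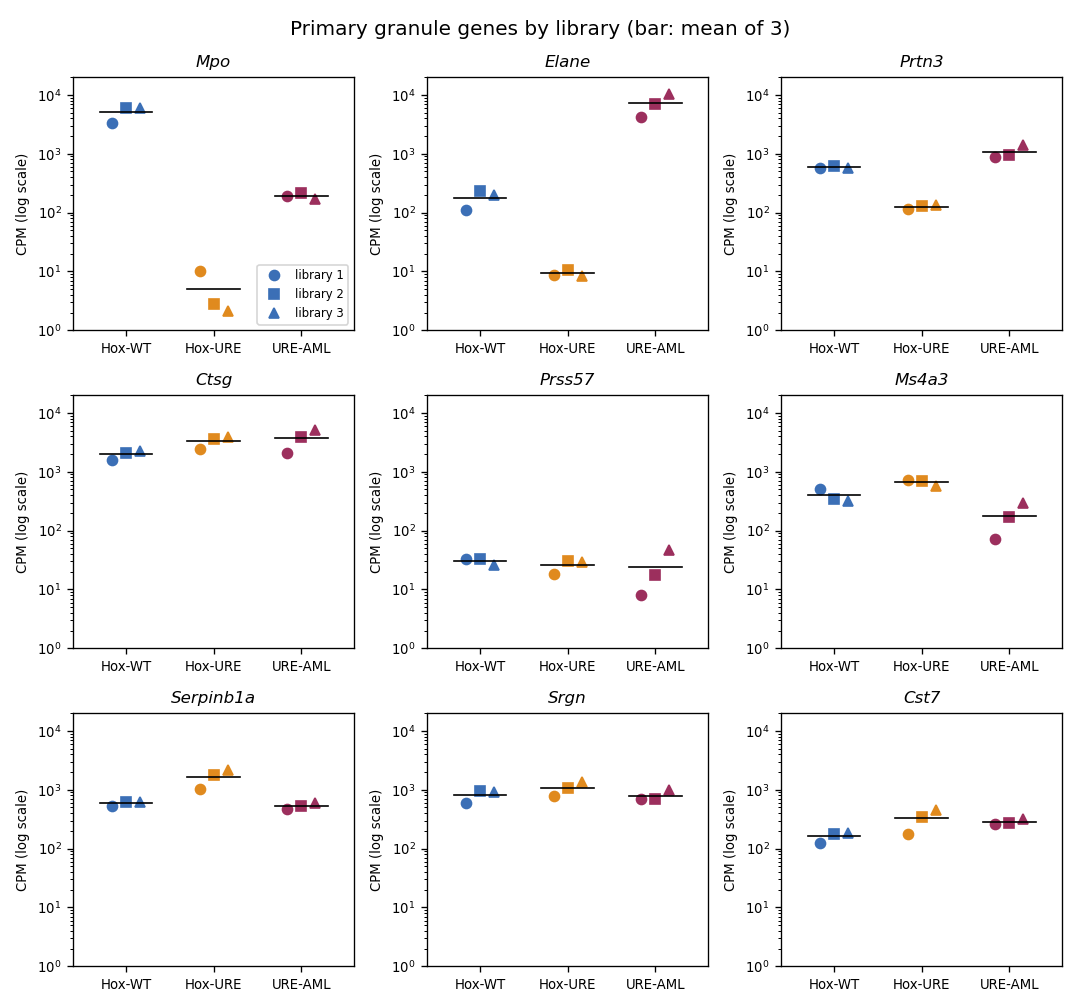
Level of each of the 9 genes in each library, in CPM on a log axis, with the libraries grouped by line; points are libraries and bars the line means. *Mpo* spans from 2.15 CPM in a Hox-URE library to 5950 CPM in a Hox-WT library, *Elane* from 8.28 to 10510 CPM, while *Prss57* and *Srgn* overlap between all 3 lines.

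Upstream sequences are shown for *Mpo*, *Elane*, *Prtn3* and *Ctsg*, since the first 3 of these genes fell in the line with the lowest *Spi1* and *Ctsg* did not, and all 4 hold the letters GAGGAAG, a core that PU.1 and other ETS factors bind. They come from RefSeq (GRCm38.p6), run 5′ to 3′ on the strand of the gene, end at the base before the exon that holds the RefSeq start, and have GAGGAAG in capitals. For *Prtn3* a GENCODE transcript with an exon further upstream begins the gene model, so the printed stretch lies within the span of the gene, in an intron of that transcript.
Mpo (chr11:87793534-87793580, strand plus): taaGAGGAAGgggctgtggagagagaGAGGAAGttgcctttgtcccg
Elane (chr10:79886062-79886246, strand plus): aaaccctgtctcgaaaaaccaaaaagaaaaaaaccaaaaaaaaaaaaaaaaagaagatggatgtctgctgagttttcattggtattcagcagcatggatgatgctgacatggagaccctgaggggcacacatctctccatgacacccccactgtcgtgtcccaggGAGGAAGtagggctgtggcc
Prtn3 (chr10:79879417-79879613, strand plus): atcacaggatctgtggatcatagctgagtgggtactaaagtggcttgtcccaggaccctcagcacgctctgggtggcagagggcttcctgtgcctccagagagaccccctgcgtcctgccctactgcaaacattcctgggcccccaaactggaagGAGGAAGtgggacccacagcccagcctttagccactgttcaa
Ctsg (chr14:56102575-56102824, strand minus): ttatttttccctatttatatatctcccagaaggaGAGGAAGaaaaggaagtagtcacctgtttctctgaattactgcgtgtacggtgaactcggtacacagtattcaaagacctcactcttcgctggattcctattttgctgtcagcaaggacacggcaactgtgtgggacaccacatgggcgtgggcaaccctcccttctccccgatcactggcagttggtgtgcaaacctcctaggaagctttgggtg
Counted from the RefSeq start, the matches lay at -247 to -241 and -224 to -218 in *Mpo*, at -85 to -79 in *Elane*, at -95 to -89 in *Prtn3* and at -216 to -210 in *Ctsg*. RefSeq promoters matched 7 of the 9 genes, *Prss57* and *Serpinb1a* being the others, and 4 of these 7 held GAGGAAG on either strand within 250 bases before the start, against 10.6% of 32841 promoters. The RUNX letters TGTGGT were found in *Ctsg*, *Srgn* and *Cst7*, and are in 14.0% of all promoters. The MYB letters TAACNG were found in *Mpo* and *Elane*, and are in 19.8%. Neither TTGCNNAA, for C/EBP, nor AAATCA, for GFI1, was found in the window of any of the 7, and these are in 9.57% and 12.4% of all promoters. A match is a description of the letters and not a bound site. In Hox-URE relative to Hox-WT, GAGGAAG was present in genes that fell and in *Ctsg*, which was not called. In URE-AML relative to Hox-WT, where *Spi1* was lower too, *Mpo* fell (log2 fold change -4.71). There *Elane* (5.34), *Prtn3* (0.88) and *Ctsg* (0.90), which hold the same letters, rose.

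*Mpo*, on chromosome 11 (GRCm38, 87793581 to 87804413, plus strand, 14 exons), codes for myeloperoxidase, which makes hypochlorous acid from hydrogen peroxide. It was at 3292, 5950 and 5884 CPM in Hox-WT, at 10.2, 2.82 and 2.15 CPM in Hox-URE, and at 192.3, 212 and 173.5 CPM in URE-AML. The 3 lines were separate, with Hox-WT highest, URE-AML between and Hox-URE lowest. The Hox-URE values rest on 279, 68 and 42 counts, well above the floor but few beside the 87827 to 170089 counts of Hox-WT. *Mpo* fell by 9.93 ± 0.63 (SE) on the log2 scale in Hox-URE relative to Hox-WT, a 975-fold difference (edgeR adjusted p = 8.77e-07, n = 3 libraries per line). URE-AML was 26.2-fold below Hox-WT (log2 fold change -4.71 ± 0.49, edgeR adjusted p = 1.95e-05) and 37.2-fold above Hox-URE (5.22 ± 0.52, edgeR adjusted p = 1.55e-05). These 3 calls were made under all 20 alternatives tried. The folds with Hox-URE rest on its library 1, which holds the most *Mpo*: without it the log2 fold change was -10.98 relative to Hox-WT and 6.26 for URE-AML relative to Hox-URE. The antisense gene *Gm11505* overlaps *Mpo*, and whether the counting used strand is not given in the sources used here.

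*Elane*, on chromosome 10 (79886247 to 79888215, plus strand, 5 exons), codes for neutrophil elastase. It was at 112, 234 and 196 CPM in Hox-WT, at 8.85, 10.7 and 8.28 CPM in Hox-URE, and at 4290, 7128 and 10510 CPM in URE-AML. The order of the lines differed from that of *Mpo*: URE-AML was far above both Hox lines, and no library of one line reached into the range of another. Hox-URE had 19.4-fold less *Elane* than Hox-WT (log2 fold change -4.28 ± 0.38, edgeR adjusted p = 8.77e-06). In URE-AML it was 40.5-fold higher than in Hox-WT (5.34 ± 0.39, edgeR adjusted p = 1.29e-06) and 786-fold higher than in Hox-URE (9.62 ± 0.47, edgeR adjusted p = 8.70e-08). All 3 calls were made under each of the 20 alternatives.

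*Prtn3*, on chromosome 10 (79874476 to 79883174, plus strand, 5 exons), codes for proteinase 3, the autoantigen of many ANCA vasculitides. Its levels were 564, 623 and 576 CPM in Hox-WT, 115, 129.9 and 133 CPM in Hox-URE, and 876, 959.7 and 1412 CPM in URE-AML. The lines kept the order seen for *Elane*, without overlap but over a narrower range. The log2 fold change was -2.22 ± 0.17 in Hox-URE relative to Hox-WT (4.67-fold lower, edgeR adjusted p = 3.22e-06), 0.88 ± 0.16 in URE-AML relative to Hox-WT (1.84-fold higher, edgeR adjusted p = 0.000979) and 3.10 ± 0.18 in URE-AML relative to Hox-URE (8.60-fold higher, edgeR adjusted p = 2.35e-07). Every alternative gave the same calls. *Plppr3*, a lipid phosphatase-related gene on the minus strand, overlaps *Prtn3* and had means of 168, 28.1 and 139 CPM in the 3 lines, with log2 fold changes of -2.58 ± 0.10, -0.27 ± 0.09 and 2.30 ± 0.10. Without knowledge of the strand setting, reads of the 2 genes in the shared stretch cannot be told apart; *Elane* and *Ctsg* overlap no other gene.

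*Ctsg*, on chromosome 14 (56099881 to 56102574, minus strand, 5 exons), codes for cathepsin G, a chymotrypsin-like protease of the same granules. It was at 1599, 2086 and 2293 CPM in Hox-WT, at 2483, 3633 and 3860 CPM in Hox-URE, and at 2123, 3933 and 5079 CPM in URE-AML. The line with almost no *Mpo* and the least *Elane* thus had each of its *Ctsg* values above those of Hox-WT, while URE-AML overlapped both. The difference of Hox-URE from Hox-WT, 0.74 ± 0.29 on the log2 scale, missed the threshold (edgeR adjusted p = 0.0545), and with the replicate number as a block it was 0.73 and was called (edgeR adjusted p = 0.00259). It was also called without Hox-URE library 1 (0.90), URE-AML library 1 (0.74) or URE-AML library 3 (0.74), with DESeq2 (0.75, DESeq2 adjusted p = 0.0169) and in 3 other settings on the filter and the libraries fitted. In URE-AML relative to Hox-WT *Ctsg* rose by 0.90 ± 0.29 (1.86-fold, edgeR adjusted p = 0.0228). That call was lost without URE-AML library 2 (0.86) or 3 (0.60), without Hox-WT library 1 (0.76) or 2 (0.93), and in the test against a 1.5-fold change. URE-AML and Hox-URE differed by 0.16 ± 0.29 (edgeR adjusted p = 0.666).

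*Prss57*, on chromosome 10 (79781474 to 79790961, minus strand, 6 exons), codes for neutrophil serine protease 4. It was at 32.7, 32.4 and 26.1 CPM in Hox-WT, at 18.5, 30.7 and 29.1 CPM in Hox-URE, and spread from 8.04 over 17.8 to 47.3 CPM in URE-AML. No pair of lines was separate. The log2 fold changes were -0.22 ± 0.49, -0.32 ± 0.49 and -0.10 ± 0.49 in the order Hox-URE and URE-AML relative to Hox-WT and then URE-AML relative to Hox-URE, and none was called (edgeR adjusted p = 0.731, 0.604 and 0.884). URE-AML library 3 decided the comparisons of URE-AML: without it *Prss57* was called lower than in Hox-WT (-1.24, edgeR adjusted p = 0.0126) and than in Hox-URE (-1.01, edgeR adjusted p = 0.0297). *Fstl3*, a follistatin-like gene on the opposite strand, overlaps *Prss57* and was at 0.161, 0.381 and 1.63 CPM in URE-AML, also highest in library 3. Whether counting used strand is not given in the sources used here, so reads in the overlap may not be separable.

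*Srgn*, on chromosome 10 (62493833 to 62527451, minus strand, 4 exons), codes for serglycin, whose glycosaminoglycan chains hold the basic proteases in the granule. It was at 596, 960.4 and 914 CPM in Hox-WT, at 791, 1061 and 1382 CPM in Hox-URE, and at 684, 699.7 and 982 CPM in URE-AML. All 3 lines overlapped, and it had the smallest change of the 9 genes in URE-AML relative to Hox-WT, -0.06 ± 0.24 on the log2 scale (edgeR adjusted p = 0.845). The other differences were 0.39 ± 0.24 in Hox-URE relative to Hox-WT (edgeR adjusted p = 0.198) and -0.45 ± 0.24 in URE-AML relative to Hox-URE (edgeR adjusted p = 0.133). The last of these was called without Hox-URE library 1 (-0.63).

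*Serpinb1a*, on chromosome 13 (32842092 to 32851185, minus strand, 7 exons), codes for the serpin that inactivates elastase, proteinase 3 and cathepsin G that leak into the cytosol. It was at 538, 629.9 and 629.5 CPM in Hox-WT, at 1018, 1814 and 2209 CPM in Hox-URE, and at 463, 539 and 585 CPM in URE-AML. Hox-URE was above both other lines, which overlapped. The rise in Hox-URE was 1.49 ± 0.24 on the log2 scale (2.80-fold, edgeR adjusted p = 0.000478), URE-AML was 3.17-fold below Hox-URE (-1.67 ± 0.24, edgeR adjusted p = 0.000183), and URE-AML and Hox-WT differed by -0.18 ± 0.23 (edgeR adjusted p = 0.539). These calls were unchanged under the 20 alternatives. Of the 2290 stretches of 31 bases in its transcripts, 232 (10.1%) occur in other genes, most often in *Serpinb1b*, which was at 0 counts in Hox-WT and URE-AML and had a mean of 0.0292 CPM in Hox-URE.

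*Cst7*, on chromosome 2 (150570415 to 150578944, plus strand, 4 exons), codes for cystatin F, which inhibits the cathepsins that activate granule proteases. It was at 125, 179.8 and 183 CPM in Hox-WT, at 178, 349.7 and 448 CPM in Hox-URE, and at 266, 267 and 319 CPM in URE-AML. URE-AML lay above Hox-WT in all libraries, and the lowest Hox-URE library fell inside the range of Hox-WT. *Cst7* rose by 1.00 ± 0.28 on the log2 scale in Hox-URE (edgeR adjusted p = 0.0130) and by 0.81 ± 0.28 in URE-AML (edgeR adjusted p = 0.0317), each relative to Hox-WT, and URE-AML and Hox-URE differed by -0.19 ± 0.28 (edgeR adjusted p = 0.580). The call in Hox-URE was lost without Hox-URE library 3 (0.69) or Hox-WT library 1 (0.84), and that in URE-AML without any one of the Hox-WT or URE-AML libraries (0.64 to 0.89), while both were lost in the test against a 1.5-fold change.

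*Ms4a3*, on chromosome 19 (11629496 to 11640851, minus strand, 7 exons), marks progenitors committed to granulocytes and monocytes. It was at 516, 348 and 324 CPM in Hox-WT, at 728, 705 and 569 CPM in Hox-URE, and at 71.8, 169 and 291 CPM in URE-AML. The lines were separate, with URE-AML lowest and Hox-URE highest. It fell by 1.91 ± 0.41 on the log2 scale in URE-AML relative to Hox-URE (3.77-fold lower, edgeR adjusted p = 0.00232) and by 1.16 ± 0.40 relative to Hox-WT (2.23-fold lower, edgeR adjusted p = 0.0289). The call relative to Hox-WT was lost without URE-AML library 2 (-1.12) or Hox-WT library 1 (-0.92) and in the test against a 1.5-fold change. Hox-URE and Hox-WT differed by 0.75 ± 0.39 (edgeR adjusted p = 0.134), which was called without URE-AML library 1 (0.75), with only the libraries of these lines (0.75) and with no filter (0.75).

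**Figure D2:**
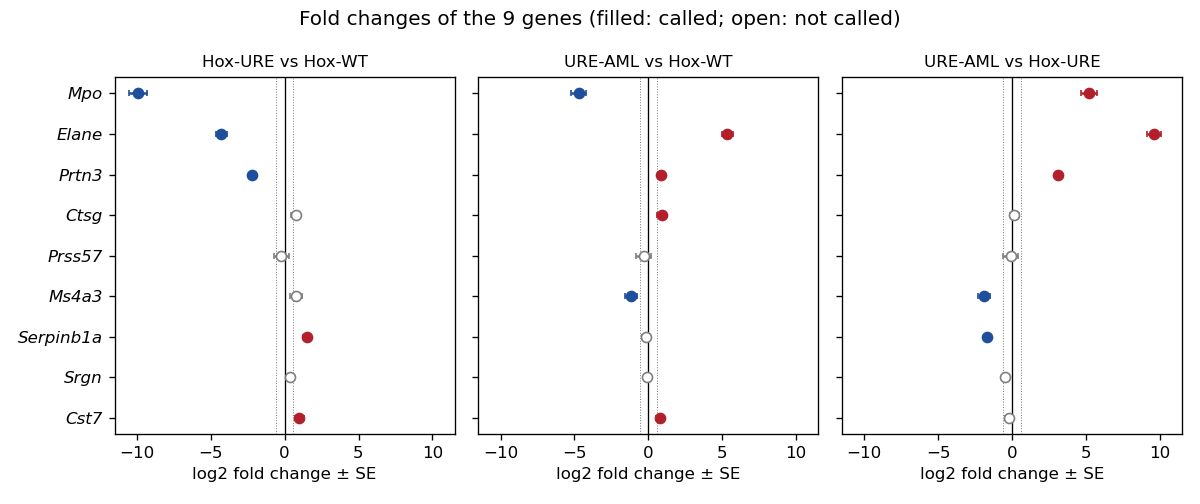
Log2 fold change with its standard error for the 9 genes in the 3 comparisons; filled points were called, open points were not, and dotted lines mark a 1.5-fold change. *Mpo* at -9.93 and *Elane* at 9.62 hold the extremes, and *Elane* (-4.28 and 5.34) and *Prtn3* (-2.22 and 0.88) have opposite signs in the comparisons of the UREd/d lines with Hox-WT.

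The make-up of the set, given as shares of counts with no correction for gene length, changed from line to line. As a share of all counts the 9 genes together held 0.761% to 1.14% of Hox-WT libraries, 0.519% to 0.810% of Hox-URE libraries and 0.929% to 1.96% of URE-AML libraries. *Mpo* made up 44.6% to 53.9% of the counts of the 9 genes in Hox-WT and 0.0248% to 0.190% in Hox-URE. In Hox-URE *Ctsg* took 44.7% to 47.0% and *Serpinb1a* 19.0% to 25.6%. In URE-AML *Elane* took 47.8% to 54.2% and *Ctsg* 23.7% to 28.2%, while *Mpo* took 0.894% to 2.14%.

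**Figure D3:**
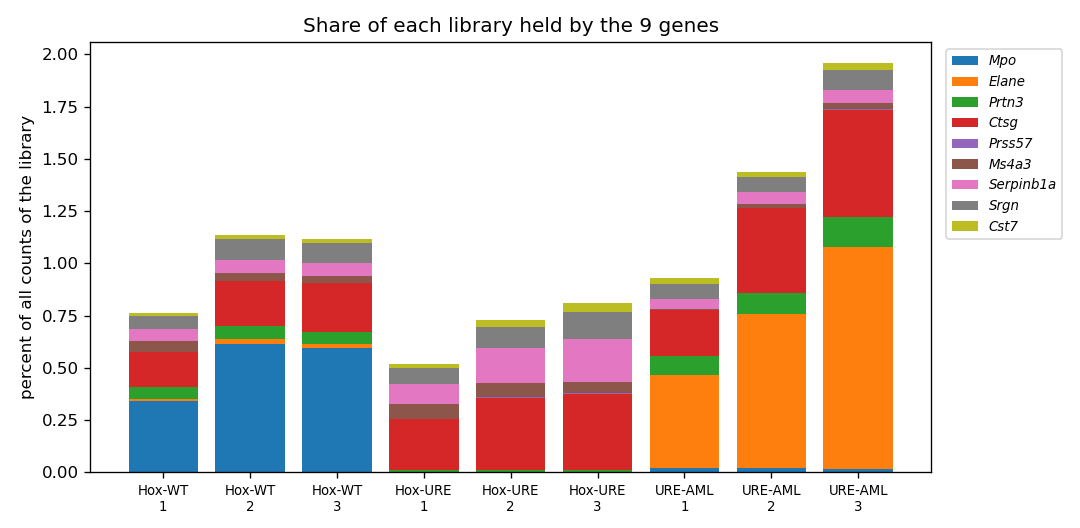
Counts of each of the 9 genes as a percentage of all counts of the library, stacked, for the 9 libraries. *Mpo* is the widest band in the Hox-WT libraries, *Ctsg* in the Hox-URE libraries and *Elane* in the URE-AML libraries, where it reaches 1.06% of all counts in library 3.

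Levels of different genes were compared as CPM per kilobase of merged exons. In Hox-WT the order was *Ctsg* (mean 1989 ± 356, SD), *Mpo* (1604 ± 482), *Prtn3* (558), *Srgn* (411), *Ms4a3* (391), *Serpinb1a* (288), *Elane* (183), *Cst7* (165) and *Prss57* (10.7). The ranges over libraries overlapped for *Ctsg* and *Mpo*, for *Srgn* and *Ms4a3*, and for *Elane* and *Cst7*, and *Prtn3* and *Prss57* stood clear of all others. *Serpinb1a* (258.7 to 303) did not overlap its neighbour *Ms4a3* (319.7 to 509.8) but reached into the range of *Srgn* (297 to 479). With the length of the longest transcript it overlapped *Ms4a3* and no longer *Srgn*, and *Prtn3* overlapped *Srgn*. In Hox-URE *Ctsg* (3319 ± 736) led and *Mpo* (1.60 ± 1.42) was last, and *Elane* (9.44) and *Prss57* (9.19) overlapped. In URE-AML *Elane* had the highest level per kilobase of 13076 tested genes with a length (7429 ± 3167). *Ctsg* (3704 ± 1487) ranked 10 and *Prtn3* (1027 ± 273) ranked 73 there, and *Elane* and *Ctsg* overlapped between libraries. *Ctsg* was within the 23 highest genes in each of the 3 lines.

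Ratios of counts within a library do not depend on its scaling, and they are compared here between lines and not between genes. For each *Mpo* count there were 0.0333 to 0.0393 *Elane* counts in the Hox-WT libraries, 0.871 to 3.86 in those of Hox-URE and 22.3 to 60.6 in those of URE-AML. The ratio of *Elane* to *Prtn3*, genes that lie next to each other, was 0.198 to 0.375 for Hox-WT, 0.0624 to 0.0826 for Hox-URE and 4.89 to 7.45 for URE-AML. That of *Elane* to *Ctsg* was 0.0699 to 0.112, 0.00214 to 0.00356 and 1.81 to 2.07 in the same order. The lines were separate in each of these 3 ratios, and in URE-AML *Elane* and *Ctsg* kept nearly 1 ratio while they varied 2.45-fold and 2.39-fold between libraries.

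Libraries of one line differed in these genes more than in most genes, with the exception of *Prtn3* in both Hox lines, whose SD was below that of the median gene. In URE-AML, *Prss57* had a highest library 5.88 times its lowest, *Ms4a3* 4.05 times, *Elane* 2.45 times and *Ctsg* 2.39 times, and their SDs of log2(CPM + 1) were above those of 99.94%, 99.89%, 99.38% and 99.35% of the 8327 genes with a mean of at least 10 CPM. URE-AML library 3 was the highest of its line in all the genes but *Mpo*, in which it was the lowest. In Hox-URE, *Mpo* varied 4.74-fold, *Cst7* 2.51-fold and *Serpinb1a* 2.17-fold. Hox-URE library 1 was the highest of its line in *Mpo* and *Ms4a3* and the lowest in the other genes except *Elane*. This library stood apart from its line over all genes too, with a chi-square per degree of freedom of 67.6 and 99.8 with libraries 2 and 3, against 26.8 between those. In Hox-WT, *Elane* varied 2.09-fold, *Mpo* 1.81-fold and *Prtn3* 1.10-fold, and library 1 was the lowest in 7 of the 9 genes, all but *Prss57* and *Ms4a3*. After the mean of its line was taken from each library, *Cst7* and *Serpinb1a* deviated together with r = 0.965, *Prss57* and *Prtn3* with 0.944, *Srgn* and *Cst7* with 0.894 and *Elane* and *Ctsg* with 0.817. *Mpo* and *Serpinb1a* had r = -0.748. Library 1 was the lowest in each of the 3 lines for *Prtn3*, *Ctsg*, *Serpinb1a*, *Srgn* and *Cst7*, and r was not adjusted for the replicate number. The r values are descriptions over the 9 libraries, whose deviations share depth and handling.

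**Figure D4:**
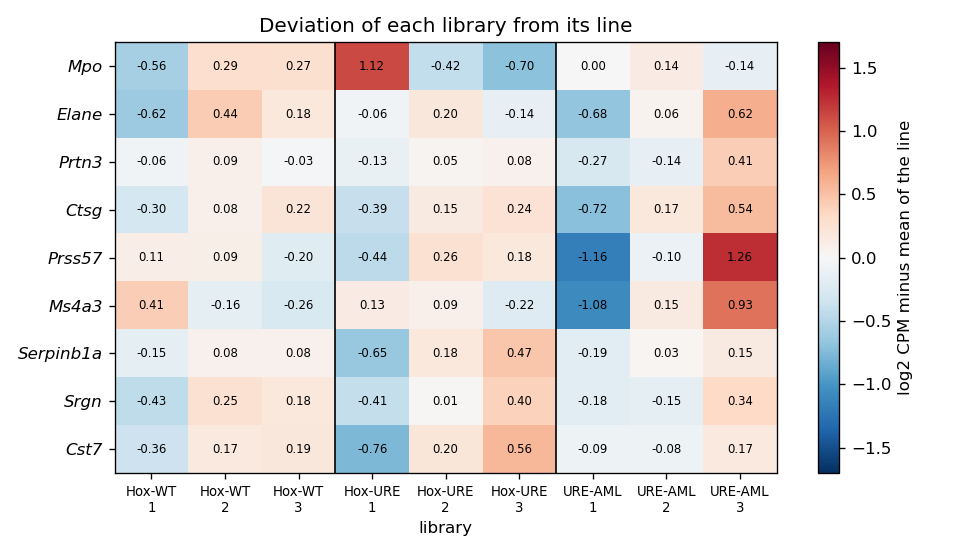
Deviation of each library from the mean of its line for the 9 genes, in log2(CPM + 1), red above and blue below the mean, with vertical lines between Hox-WT, Hox-URE and URE-AML. Hox-URE library 1 stands at 1.12 for *Mpo* and at -0.65 and -0.76 for *Serpinb1a* and *Cst7*, and URE-AML libraries 1 and 3 at -1.16 and 1.26 for *Prss57*.

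*Prss57*, *Prtn3* and *Elane* lie together on chromosome 10, with *Prss57* starting at -95.3 kb and *Prtn3* at -11.8 kb from the start of *Elane*. From 100 kb before to 100 kb after this cluster the table held 28 other genes, of which 17 were tested. In Hox-URE relative to Hox-WT 1 of the 17 rose and 3 fell, with a median log2 fold change of -0.41 and a range of -2.58 to 1.33. The lowest was *Plppr3*, and the others that fell were *Palm* (-1.90), a gene of a membrane-associated protein, and *Wdr18* (-0.75). Of the same 17, 2 rose and 4 fell in URE-AML relative to Hox-WT, and the highest value among the 17 was 1.90, against 5.34 for *Elane*. The nearest tested gene on the far side of *Elane*, *Med16* at 22.7 kb, a Mediator subunit, had log2 fold changes of -0.41, -0.44 and -0.03 in the 3 comparisons and was not called. Near *Mpo* 6 genes were tested, of which 2 fell in Hox-URE and 2 rose and 3 fell in URE-AML, each relative to Hox-WT. *Tspoap1* was at means of 439, 1.03 and 1.09 CPM, and thus was low in both UREd/d lines. The lactoperoxidase gene *Lpo* fell in both, from 0.864 CPM to 0, whereas the eosinophil peroxidase gene *Epx* was at 0.372, 0 and 17.5 CPM. Near *Ctsg*, the tested genes *Mcpt8*, *Gzme* and *Gzmd*, all granule serine protease genes, rose in URE-AML relative to Hox-WT, and *Mcpt8* and *Gzme* rose in Hox-URE as well. *Mcpt8* had means of 8.56, 83.8 and 32.5 CPM in the 3 lines and fell in URE-AML relative to Hox-URE (-1.36), whereas *Gzme* was at 0, 0.724 and 15.7 CPM and *Gzmd* at 0.0119, 0.0341 and 0.782 CPM. Near *Srgn*, all 5 tested genes fell in Hox-URE relative to Hox-WT (-1.64 to -0.88), where *Srgn* itself had 0.39. Near *Ms4a3*, all 4 tested genes, *Ms4a6b*, *Ms4a6d*, *Ms4a2* and *Oosp1*, fell in URE-AML relative to both Hox lines, the direction of *Ms4a3*, from means of 1.58 to 3.62 CPM in Hox-WT. Near *Cst7* 3 genes were tested, of which 1 fell in Hox-URE and 2 rose and 1 fell in URE-AML, each relative to Hox-WT, and near *Serpinb1a* the one tested gene, *Wrnip1*, was not called in any comparison.

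**Figure D5:**
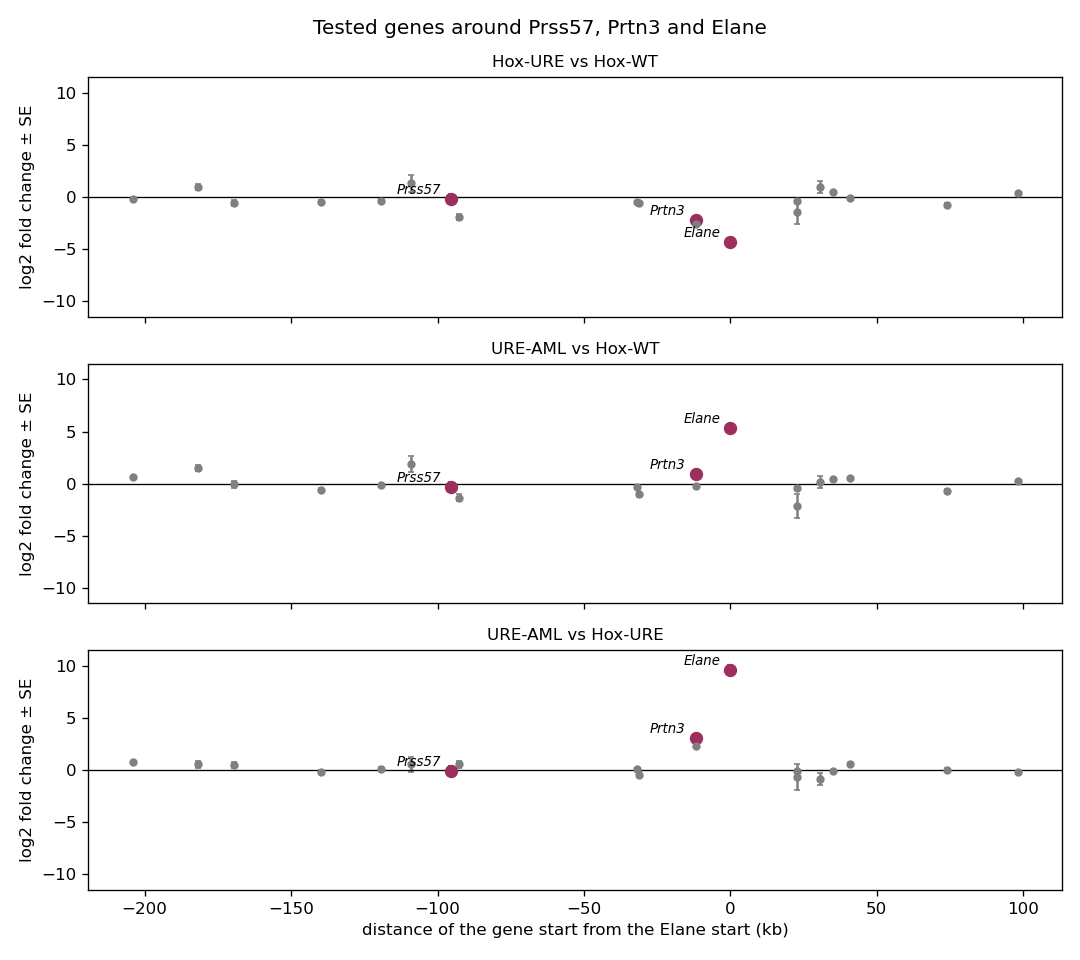
Log2 fold change of the tested genes around *Prss57*, *Prtn3* and *Elane*, by distance in kb of their start from that of *Elane*, in the 3 comparisons; coloured points are members, grey points other genes. *Elane* reaches -4.28, 5.34 and 9.62 and *Prtn3* -2.22, 0.88 and 3.10, while the other genes span -2.58 to 1.33, -2.10 to 1.90 and -0.83 to 2.30.

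The genes whose log2(CPM + 1) followed each member most closely over the 9 libraries were sought among 8615 genes with a mean of at least 10 CPM. For *Mpo* they were *Kit* (r = 0.993), the receptor of stem cell factor, *Bmi1* (0.992), a Polycomb subunit, and *Rgs19* (0.990). For *Elane* they were *S100a8* (0.997), a calgranulin, *Ltb4r1* (0.997), a leukotriene B4 receptor, and *Hsd11b1* (0.996). No member was among the 3 closest genes of another. The closest members were *Elane* and *Prtn3* (r = 0.944), with *Elane* in rank 203 for *Prtn3*, whereas *Mpo* and *Elane* had r = 0.46. With 3 lines of 3 libraries these values mostly describe the order of the 3 lines.

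The machinery that matures and sorts the proteases was examined as a list of 13 genes, all tested. Relative to Hox-WT 6 rose and none fell in Hox-URE, with a median log2 fold change of 0.54, in URE-AML relative to Hox-WT 3 rose and 2 fell (median 0.22), and in URE-AML relative to Hox-URE 1 rose and 4 fell (median -0.39). *Ctsc*, the dipeptidyl peptidase that removes the blocking dipeptide from elastase, proteinase 3 and cathepsin G, was at 141, 122 and 115 CPM in Hox-WT, at 187, 241 and 275 CPM in Hox-URE, and at 0.606, 0.428 and 0.772 CPM in URE-AML. The line with the most *Elane* and *Prtn3* transcripts thus had the least *Ctsc* by far (log2 fold change -7.69 relative to Hox-WT, edgeR adjusted p = 3.17e-09, and -8.58 relative to Hox-URE, edgeR adjusted p = 3.07e-09), and in Hox-URE *Ctsc* rose by 0.90 (edgeR adjusted p = 0.000673). *Cd63*, a granule membrane protein that sorts elastase, rose in Hox-URE (0.97) and *G6pc3*, a phosphatase whose loss causes neutropenia, fell in URE-AML (-1.35 relative to Hox-WT). *Lyst*, the Chediak-Higashi gene that sets granule size, rose in both UREd/d lines (1.29 and 2.84), as did *Rab27a* (1.20 and 1.27), a GTPase of granule release.

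Among 15 other inhibitors of serine proteases and cathepsins, 11 were tested. Relative to Hox-WT, 6 rose and 2 fell in Hox-URE (median 2.09) and 9 rose and 1 fell in URE-AML (median 4.52), and relative to Hox-URE 6 rose and 1 fell in URE-AML (median 1.35). Here and in the lists that follow, a gene with at most 3 counts in every library of 1 line enters the median at the bound set by the floor of 3 counts per library, and a gene at the floor in both lines is left out. *Slpi*, a secreted elastase inhibitor, was at 9.27 to 15.9 CPM in Hox-WT, reached 1302 to 2200 CPM in Hox-URE and was at 122 to 175 CPM in URE-AML. The line with the least *Elane* thus had the most *Slpi*, but the line with the most *Elane* did not have the least *Slpi*. *Serpinb10* had means of 0.913, 17.6 and 212 CPM in the 3 lines, *Serpinb2* 0.654, 117 and 95.5 CPM, and the cytosolic cathepsin inhibitor *Cstb* 20.7, 179 and 457 CPM. The stefin gene *Stfa3* had 0 counts in both Hox lines and 67.0 to 107 CPM in URE-AML. Stefin and serpin genes have near-identical copies, between which reads may be split.

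The enzymes that build the glycosaminoglycan chains of serglycin numbered 14, with 13 tested. In Hox-URE relative to Hox-WT 5 rose and 1 fell (median 0.42), in URE-AML relative to Hox-WT 5 rose and 3 fell (0.06), and in URE-AML relative to Hox-URE 4 rose and 2 fell (-0.07). *Csgalnact1*, which starts chondroitin chains, was at 47.8 to 68.1 CPM in Hox-WT, at 87.5 to 125 CPM in Hox-URE and at 0.0858 to 0.761 CPM in URE-AML, whereas its relative *Csgalnact2* was not called in any comparison. The chondroitin 4-sulfotransferases *Chst11* and *Chst12* rose in Hox-URE (1.66 and 0.70) and in URE-AML (2.44 and 1.78), each relative to Hox-WT. *Xylt1*, one of the xylosyltransferases that begin the chain, fell in both (-4.64 and -3.20).

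Other contents of primary granules and lysosomes were 15 genes, of which 13 were tested. Relative to Hox-WT 3 rose and 2 fell in Hox-URE (median 0.35) and 5 rose and 2 fell in URE-AML (median -0.03), and relative to Hox-URE 3 rose and 2 fell in URE-AML (median 0.25). The cathepsins *Ctsd* and *Ctsb* rose in Hox-URE (1.20 and 1.14) and URE-AML (1.45 and 1.67), and *Cd68*, a lysosomal membrane protein, fell in both (-1.10 and -2.65). *Lyz2*, lysozyme, had means of 5.52, 2.21 and 19.8 CPM, and *Bpi* and *Lyz1* were at or under the floor in all 3 lines.

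Of 13 transcription factors linked to the promyelocyte program 12 were tested. Relative to Hox-WT 3 rose and 5 fell in Hox-URE (median 0.0043) and 6 rose and 2 fell in URE-AML (0.52), and relative to Hox-URE 6 rose and 1 fell in URE-AML (0.80). *Cebpa*, which is needed to enter the granulocyte line, was at 296 to 315 CPM in Hox-WT, 324 to 362 CPM in Hox-URE and 361 to 418 CPM in URE-AML, and was not called in any comparison. *Cebpe*, which acts at the passage from primary to secondary granules, had the order of *Elane*, at 43.9 to 61.0, 5.03 to 6.95 and 229.6 to 338 CPM (log2 fold changes of -3.11, 2.41 and 5.52, all called). *Cebpb* (0.96 and 2.31), *Cebpd* (2.13 and 1.24) and the ETS factor *Ets1* (5.87 and 5.80) rose in Hox-URE and in URE-AML, each relative to Hox-WT. *Gfi1*, a repressor that neutrophil precursors require, was at means of 144, 93.4 and 175 CPM and *Myb* at 299, 167 and 177 CPM. Genes of the secondary and tertiary granules moved with *Elane*: of 12 tested, 10 fell and 1 rose in Hox-URE (median -3.15) and 10 rose in URE-AML (4.95), each relative to Hox-WT, and all 12 rose in URE-AML relative to Hox-URE (9.50). They summed to 66.3 to 132 CPM in Hox-WT, to 111 to 175 CPM in Hox-URE and to 4898 to 11370 CPM in URE-AML, with *Ngp* at 8.41 CPM in Hox-WT and 2068 CPM in URE-AML and *S100a8* at 38.4 and 2791 CPM (means) and *Lcn2* as the gene that rose in Hox-URE (133 CPM against 8.06 CPM). Hox-URE was at the floor in 7 of the 12 genes. Of the genes that fell there, *Ltf*, *Camp*, *Mmp8*, *Chil3* and *Olfm4* had means of only 0.499 to 1.10 CPM in Hox-WT. In a list of early neutrophil progenitor genes, 11 were tested, of which *Fcnb* also counts among the secondary and tertiary granule genes; 2 rose and 8 fell in Hox-URE relative to Hox-WT (median -2.05), 5 rose and 4 fell in URE-AML relative to Hox-WT (0.65), and 8 rose and 2 fell in URE-AML relative to Hox-URE (1.83).

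Markers of basophils and mast cells, whose granules also hold serglycin and serine proteases, were mostly higher in Hox-URE. Of 12 such markers 8 were tested, and 7 of these rose in Hox-URE relative to Hox-WT, while 7 fell in URE-AML relative to Hox-URE. Their summed level was 607 to 928 CPM in Hox-WT, 43.8 to 79.5 CPM in URE-AML, and 1805, 3962 and 6380 CPM in Hox-URE libraries 1, 2 and 3. *Cpa3*, mast cell carboxypeptidase, was at 768, 2789 and 4437 CPM and *Prss34*, a basophil protease, at 591, 442 and 1084 CPM in Hox-URE, while the IgE receptor gene *Fcer1a* and the mast cell protease gene *Mcpt4* were at 0 there. In Hox-WT *Fcer1a*, *Mcpt4*, *Cma1*, *Tpsb2*, *Tpsab1* and *Gzmb* were at 0, and in URE-AML *Mcpt4* was. The part of these markers in the levels of the 9 genes was not tested. Monocyte and macrophage markers summed to 438 to 492, 847 to 949 and 282 to 654 CPM in the order of lines used so far. Of these 9 markers 7 fell and 1 rose in Hox-URE relative to Hox-WT. There the chemokine receptor gene *Ccr2* alone had a mean of 885 CPM and *Csf1r* and *Ms4a6c* were at 0. In URE-AML 2 rose and 4 fell relative to Hox-WT, and 3 rose and 1 fell relative to Hox-URE. *F13a1* (mean 238 CPM) and *Cd14* (189 CPM) rose in URE-AML relative to both Hox lines, while *Ly86* and *Ms4a6c* were at 0 in URE-AML. Eosinophil markers summed to 20.7 to 26.0, 0.874 to 2.20 and 14.6 to 55.7 CPM, erythroid markers to 4.27 to 18.1, 0.765 to 2.10 and 4.47 to 22.4 CPM, and megakaryocyte markers to 6.75 to 15.8, 16.5 to 51.0 and 1.94 to 5.15 CPM. Markers of natural killer and T cells, which use *Srgn* and *Cst7* too, summed to 0 to 0.143, 1.69 to 2.90 and 1.05 to 3.05 CPM. The tested marker among them, *Prf1*, the perforin gene, was at or under the floor in Hox-WT and rose to a mean of 2.03 CPM in Hox-URE (edgeR adjusted p = 0.000123) and of 2.17 CPM in URE-AML (edgeR adjusted p = 8.01e-05), while *Ncr1*, *Gzma*, *Cd3e*, *Cd3g* and *Cd8a* were at 0 in all libraries.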

How the data were processed

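The authors quantified stranded poly-A libraries with Salmon against a mouse transcriptome (GRCm38) and summed transcripts to genes. What they deposited are unscaled estimated counts of genes, rounded to whole numbers. The transcriptome release, the strand setting and any scaling for transcript length are not given in the sources used here, so shifts between transcripts of a gene could move its count. Columns were matched to samples, and lines taken, from the labels.

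Genes were kept by filterByExpr (minimum count 10), which put aside 0.0499% of counts and left 13082 genes. All 9 libraries (20331064 to 28588718 counts) were fitted with edgeR 4.0.16 (R 4.3.3), with TMM factors of 0.938 to 1.04, line as the only factor and two-sided quasi-likelihood F tests, with Benjamini-Hochberg adjustment over all tested genes. Calls needed an adjusted p below 0.05 and a change beyond 1.5-fold. The SE was obtained by dividing the log2 fold change, without its sign, by the root of F. The common biological coefficient of variation was 0.173. The code was tested on simulated data. Gene models came from GENCODE M21, which holds 54094 of the 54347 identifiers, and promoters from RefSeq (GRCm38.p6). Levels per kilobase used merged exons. Figures were drawn with matplotlib 3.10.9.

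The members and gene lists were chosen with earlier results of these data known. All members are named, with genes of the fixed lists, tested genes within 100 kb of a member, and the 3 genes most like *Mpo* and *Elane*. *Serpinb1b* and *Gm11505* are named for shared or overlapping sequence. Replicate numbers of the labels were checked for pairing by correlating deviations from the line means over genes. They gave 0.393, 0.216 and 0.294 for Hox-WT with Hox-URE, 0.0583 to 0.188 for Hox-WT with URE-AML and 0.0758 to 0.158 for Hox-URE with URE-AML. Libraries with different numbers were not correlated, so these values cannot show whether the numbers pair the libraries. The main fit has no replicate block, and the fit with the block is given as an alternative. Alternatives were other scalings, no filter or a minimum of 10 counts in all libraries, a fit of the 6 libraries compared alone, blocking by replicate number, DESeq2 1.42.0, calls on p alone, glmTreat against 1.5-fold, the longest transcript for lengths, and leaving out each library.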

Additional observations from a re-analysis of the deposited data

How the results depend on the processing

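The calls of *Mpo*, *Elane* and *Prtn3* in all 3 comparisons, and of *Serpinb1a* in the 2 with Hox-URE, were made under each of 20 alternatives. Of the values of the 9 genes under alternatives, 496 kept their direction and side of the threshold, 14 newly passed it, 18 no longer did and 12 changed sign. Members called in Hox-URE relative to Hox-WT numbered 5. Those called higher, 2 in number, became 4 with no filter on low counts and with only the 6 libraries compared, and 1 with glmTreat. In URE-AML relative to Hox-WT glmTreat called 3 members in place of 6, with 2 higher and 1 lower. With at least 10 counts in every library 3200, 3602 and 3553 genes were called in the 3 comparisons, in place of 4873, 5648 and 5591, since fewer genes were tested. Scaling by library size alone shifted the median of all genes by -0.107 (log2) in Hox-URE relative to Hox-WT and by 0.111 in URE-AML relative to Hox-URE.

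Leaving out 1 library gave 4687 to 5235 genes and 4 to 7 members called (1 to 4 higher, 3 lower) in Hox-URE relative to Hox-WT, 5539 to 5945 genes and 3 to 6 members (2 to 4 higher, 1 to 3 lower) in URE-AML relative to Hox-WT, and 5478 to 5873 genes and 5 to 6 members (3 higher, 2 to 3 lower) in URE-AML relative to Hox-URE. With the replicate block 6, 6 and 5 members and 4908, 5679 and 5584 genes were called. The block added the call of *Ctsg* in Hox-URE relative to Hox-WT and changed no other call of a member. Whether the replicate numbers pair libraries of different lines is not settled by the correlations of their deviations.

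Changes of sign occurred only in differences that were not called. Leaving out 1 library gave -1.24 to 0.10 for *Prss57* and -0.25 to 0.061 for *Srgn* in URE-AML relative to Hox-WT. With URE-AML set beside Hox-URE it gave -0.13 to 0.44 for *Ctsg*, -1.01 to 0.32 for *Prss57* and -0.49 to 0.10 for *Cst7*, and scaling by library size only gave 0.0072 for *Prss57*. The causes were not tested. *Mpo* in URE-AML stood at 70.0 CPM per kilobase with the longest transcript, in place of 61.2. The values of *Mpo* in Hox-URE rest on 42 to 279 counts.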
